A study of Cavia porcellus with 24 samples.

Results

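The libraries described here come from 6 of the 24 guinea pigs sequenced, all F1 offspring on high fat chow, and they compare F0 dams on a restricted ration (PR-H, animals 16, 23 and 31) with F0 dams fed the full ration (PC-H, animals 11, 21 and 34). Members were chosen by their sample labels alone. All were outbred Hartley guinea pigs killed at 20 weeks of age after 12 weeks on chow with 38% of its energy from fat, 20% from protein and 42% from carbohydrate. PR-H dams received 70% of the daily intake of freely fed animals until mid gestation and 90% until the end of lactation, and PC-H dams received 100% throughout. PC-C and PR-C, with 3 animals each, are the F1 offspring of the same kinds of dams on control chow, of which 13% of the energy is fat, 27% protein and 60% carbohydrate. RNA came from the lysate flushed out of 1 carotid artery per animal, labelled as endothelial cells. Litters are not given in the labels. In the study's animal list PC-H 34 is the only female of the 6 and carries a note on a mix of diets.

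The endothelium lines the artery, controls its tone and its permeability, and is the first layer to meet cholesterol-rich lipoproteins. Endothelial cells export cholesterol through transporters such as Abcg1 and raise sterol and fatty acid synthesis through Srebf1. They also respond to interferon and can lose endothelial character under transcription factors such as Snai2, which is best known from epithelial to mesenchymal transition. The comparison asks whether the ration of the dam alters the transcript levels of offspring that were all assigned to the same fat-rich chow. The study reported a higher mean intake of energy and of fat per kg body weight in PR-H than in PC-H on this chow. Intake therefore varied along with the ration of the dam, and its part was not tested.

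Each library held between 24030113 and 28823878 reads on genes, with 15581 to 16074 genes detected. The 100 most abundant genes took 23.2% to 24.2% of the reads. Of 38 markers of endothelial, smooth muscle, fibroblast, white cell, red cell and dividing cell origin, 0 could be paired with an identifier here, so the labelled cell type was not checked. Gene symbols were available for 147 identifiers. Because whole lysates were sequenced, fewer cells of a type and less RNA per cell cannot be told apart.

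With all 6 animals, 58 genes differed between PR-H and PC-H with DESeq2 (0.32% of the 18149 genes in the table, with 24 or 0.132% higher and 34 or 0.187% lower in PR-H) and 0 of 13224 genes differed with limma, at an adjusted p under 0.05. The limma test covers genes whose mean reached 10 normalized counts, meaning reads divided by the size factor of the library. Of these, 49.6% had the higher mean in PR-H. At an unadjusted p under 0.05 limma held 2291 genes, 1109 higher and 1182 lower in PR-H, or 17.3% of those tested, and edgeR held 2371 with 0 after adjustment. The levels of PR-H and PC-H did not overlap in 1885 genes, 14.3% of those tested, with 964 (7.29%) higher and 921 (6.96%) lower in PR-H. Of the 58 genes, 55 met the level filter (24 higher and 31 lower), and their absolute log2 differences ran from 0.43 to 4.53 with a median of 1.21. Symbols were known for 6 of them, namely Tshz1, Npnt and Gmeb2 on the higher side and Snai2, Glrx and Limd2 on the lower side.

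Tshz1, a zinc finger transcription factor of the teashirt family, stood at 942, 1100.3 and 1088 in PC-H 11, 21 and 34 and 2193, 1672 and 1817 in PR-H 16, 23 and 31 (normalized counts, as for every level below). It was the gene with the lowest p in limma (log2 difference 0.85 ± 0.15 SE, adjusted p = 0.179 with limma and 0.000387 with DESeq2). All PR-H animals lay above all PC-H animals, and the control chow animals ranged from 1687 to 1959.7 in PC-C and 1404 to 2055 in PR-C, with PC-H the low group. Genes with a symbol come from the study's list of genes that differ between PC-C and PC-H. For each of them, a PC-H level away from PC-C is therefore not independent evidence. Gmeb2, a DNA-binding factor of the glucocorticoid modulatory element, stood at 154, 277 and 213 in PC-H 11, 21 and 34 and 423, 353 and 319 in PR-H 16, 23 and 31 (log2 difference 0.79 ± 0.20 SE, adjusted p = 0.251 with limma and 0.0394 with DESeq2). Again the groups did not overlap, and PC-H 11 was the lowest animal. Npnt encodes nephronectin, a basement membrane ligand of integrin alpha 8 beta 1, and stood at 13725, 10929 and 11838 in PC-H 11, 21 and 34 and 19405, 18678 and 18321 in PR-H 16, 23 and 31 (log2 difference 0.63 ± 0.17 SE, adjusted p = 0.251 with limma and 0.0489 with DESeq2). The control chow animals ranged from 14758 to 23839 in PC-C and 19983 to 21624 in PR-C. All PR-H animals lay within the PC-C range but below the PR-C range, and all PC-H animals lay below both ranges.

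Glrx encodes glutaredoxin, which removes glutathione from protein thiols, and stood at 4125, 1665 and 4775 in PC-H 11, 21 and 34 and 499, 1308 and 1516 in PR-H 16, 23 and 31 (log2 difference -1.68 ± 0.42 SE, adjusted p = 0.251 with limma and 0.0327 with DESeq2). PC-H 11 and 34 were high, whereas PC-H 21 was close to PR-H 31. Snai2, the transcription factor also called Slug, stood at 239, 87.7 and 1023 in PC-H 11, 21 and 34 and 91.1, 33.6 and 40.6 in PR-H 16, 23 and 31 (log2 difference -2.45 ± 0.69 SE, adjusted p = 0.251 with limma and 0.0152 with DESeq2). Here the groups overlapped, since PC-H 21 was below PR-H 16, and PC-H 34 was the highest of the 6 animals. Limd2, a LIM domain protein, stood at 97.1, 56.5 and 382 in PC-H 11, 21 and 34 and 45.5, 34.4 and 37 in PR-H 16, 23 and 31 (log2 difference -1.70 ± 0.56 SE, adjusted p = 0.251 with limma and 0.0489 with DESeq2). PC-H 34 was again the highest animal and PC-H 21 the lowest of its group.

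Among the calls without a symbol whose mean reached 50 normalized counts without overlap, the largest difference upward was that of ENSCPOG00000021736, at 96.2, 97.8 and 18.1 in PC-H 11, 21 and 34 and 152, 436 and 213 in PR-H 16, 23 and 31 (log2 difference 2.10 ± 0.49 SE, adjusted p = 0.251 with limma and 0.0327 with DESeq2). ENSCPOG00000000211 followed, at 15.1, 67.6 and 50.6 in PC-H 11, 21 and 34 and 95.4, 231 and 138 in PR-H 16, 23 and 31 (log2 difference 1.92 ± 0.47 SE, adjusted p = 0.251 with limma and 0.0459 with DESeq2). On the lower side, ENSCPOG00000010280 stood at 208, 82.7 and 353 in PC-H 11, 21 and 34 and 5.16, 4.1 and 15 in PR-H 16, 23 and 31 (log2 difference -4.53 ± 1.23 SE, adjusted p = 0.251 with limma and 0.0376 with DESeq2). In this gene and in ENSCPOG00000035683 (283, 78.7 and 469 in PC-H 11, 21 and 34 and 2.58, 11.5 and 27.3 in PR-H 16, 23 and 31, -4.35 ± 1.11 SE) PC-H 21 was the lowest of the PC-H animals but still above all PR-H animals.

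**Figure D1:**
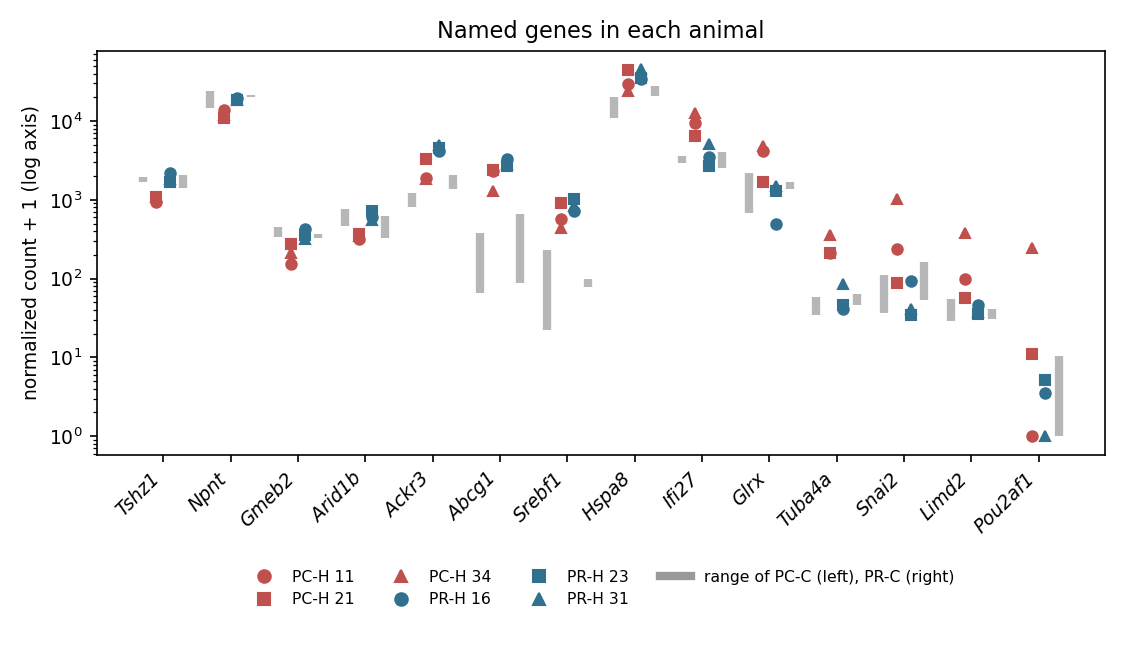
Normalized count plus 1 (log axis) of 14 named genes in each PC-H (red) and PR-H (blue) animal, with the range of the 3 PC-C and 3 PR-C animals as grey bars. Tshz1, Npnt, Gmeb2 and Limd2 are among the genes whose groups do not overlap, and PC-H 34 is the highest animal in Snai2, Limd2 and Pou2af1, at 1023, 382 and 247 normalized counts.

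The calls depended on single animals. Without PC-H 21, limma found 1640 genes (12.4% of those tested, with 765 or 5.78% higher and 875 or 6.62% lower in PR-H) and DESeq2 found 2459, of which 1599 were called by both. Leaving out any of the other 5 animals left limma at 0 and DESeq2 at 2 (without PC-H 34), 4 (without PR-H 23), 9 (without PC-H 11), 14 (without PR-H 16) and 98 (without PR-H 31). With an independent filtering target of 0.05 in place of the default, the count was 23 without PC-H 11 and 2 without PR-H 23. Of the 58 DESeq2 calls, 56 were also called without PC-H 21, but 2 without PC-H 34 and 3 without PR-H 23. Tshz1 passed DESeq2 in each of these 6 fits, with an adjusted p of at most 0.0327. Npnt passed in 1 of them, without PC-H 21, while its DESeq2 log2 difference stayed between 0.55 and 0.72. Limd2 also passed only without PC-H 21, and without PC-H 34 its DESeq2 log2 difference was -0.98 (adjusted p = 0.686). Gmeb2 and Glrx each passed in 2 of the 6 fits, without PC-H 21 and without PR-H 31. Snai2 lost its call without PC-H 34, where its DESeq2 log2 difference was -1.57 (adjusted p = 0.571), and without PR-H 23. Since PC-H 34 is also the only female and the animal with the diet note, sex, diet mix and animal cannot be told apart in PC-H. With sex as a covariate limma called 0 genes.

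**Figure D2:**
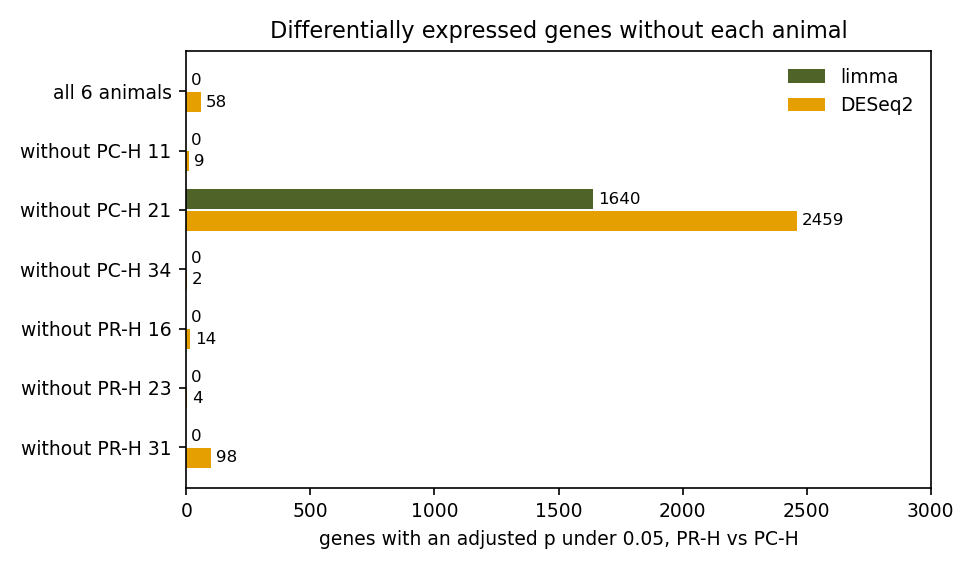
Number of genes with an adjusted p under 0.05 between PR-H and PC-H, with limma (green) and DESeq2 (orange), for all 6 animals and without each in turn. The fit without PC-H 21 gives 1640 and 2459 genes, and every other fit gives 0 with limma and at most 98 with DESeq2.

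Levels spread more widely among the 3 PC-H animals than among the 3 PR-H animals. All PR-H animals are male, whereas PC-H includes a female, PC-H 34, which also carries the diet note. Sex, diet mix and animal cannot be told apart in the spread of PC-H. The median SD between the 3 animals was 0.378 log2 units in PC-H and 0.206 in PR-H. In 10209 of the 13224 genes (77.2%) the SD was larger in PC-H. It was at least 2 times as large in PC-H in 5829 genes (44.1%) and at least 2 times as large in PR-H in 915 (6.92%). The other F1 groups lay between, at 0.252 in PC-C and 0.278 in PR-C. In the F2 groups the median SD was 0.239 in PC-C-C, 0.253 in PR-C-C, 0.19 in PR-C-H and 0.167 in PC-C-H, the last over 2 animals, for which a median SD runs lower than over 3. As a measure per animal, the median distance to the mean of the other animals of the group was 0.327, 0.401 and 0.436 log2 units in PC-H 11, 21 and 34, against 0.188, 0.242 and 0.201 in PR-H 16, 23 and 31. The lowest PC-H value exceeded the highest PR-H value, and the means were 0.388 ± 0.0559 and 0.21 ± 0.0277 (SD, n = 3). The two-sided exact permutation test gave p = 0.1, the smallest value that 3 animals against 3 allow, so the design cannot reach the threshold. The 3 distances of a group also depend on each other, because each is taken to the other animals of that group. They were shuffled between the groups as fixed values, so the p-value and the SDs of the means are only a description. The median over genes of the SD in PC-H minus that in PR-H was 0.158, and it was 0.0595 without PC-H 34, 0.0871 without PC-H 21 and 0.21 without PR-H 23. These fits set an SD over 2 animals against an SD over 3. By construction that lowers the value without a PC-H animal and raises it without a PR-H animal.

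The SD was larger in PC-H in all 5 classes of expression level. For genes with a mean of 10 to 50 normalized counts the median SD was 1.01 in PC-H and 0.648 in PR-H. In genes of 200 to 1000 it was 0.352 and 0.193, and in genes of 5000 or more it was 0.3 and 0.144. The ratio of the medians was 1.55 in the lowest of the 5 classes and 2.08 in the highest. Counting error of a single library fell from 0.288 log2 units in the lowest class to 0.0147 in the highest, and in each class its median was below the median SD of both groups.

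**Figure D3:**
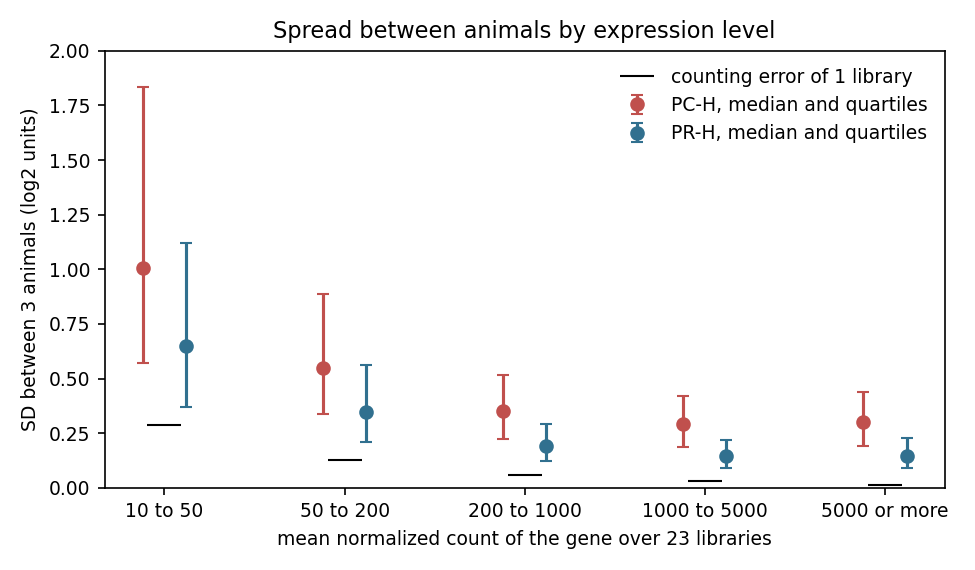
SD between the 3 animals of a group (log2 units) by the mean normalized count of the gene, as median (point) and quartiles (bars) for PC-H (red) and PR-H (blue), with the median counting error of a library (black). PC-H lies above PR-H in all 5 classes, from 1.01 against 0.648 to 0.3 against 0.144.

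PC-H 21 lay nearer to the animals of all other groups, on high fat or control chow, than to PC-H 11 and 34. Its root mean square difference to the PR-H animals was 0.752 to 0.804 log2 units, beside 0.72 to 0.787 among PR-H animals, and 0.786 to 0.826 to the PR-C-H animals. To the control chow animals it was 0.831 to 1.03 for PC-C and 0.853 to 1.00 for PR-C. For those of F2 it was 0.915 to 0.991 for PC-C-C and 0.948 to 0.958 for PR-C-C. PC-H 11 lay at 0.999 to 1.19 and PC-H 34 at 1.12 to 1.38 from the PR-H animals, and PC-H animals lay 1.09 to 1.27 apart. Of all 22 other libraries the nearest to PC-H 21 was PR-H 31, at 0.752, followed by the full-ration F2 animals on high fat chow, PC-C-H 53 at 0.754 and PC-C-H 50 at 0.764. The nearest library to both PC-H 11 (0.923) and PC-H 34 (0.941) was PC-C-C 52, an F2 animal on control chow. PC-H 21 fell inside the range of the 3 PR-H animals in 55.1% of genes, PC-H 11 in 27.9% and PC-H 34 in 22.7%. Among the 5829 genes with an SD at least 2 times as large in PC-H, the animal farthest from the group's median was PC-H 34 in 2323, PC-H 21 in 1857 and PC-H 11 in 1649.

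**Figure D4:**
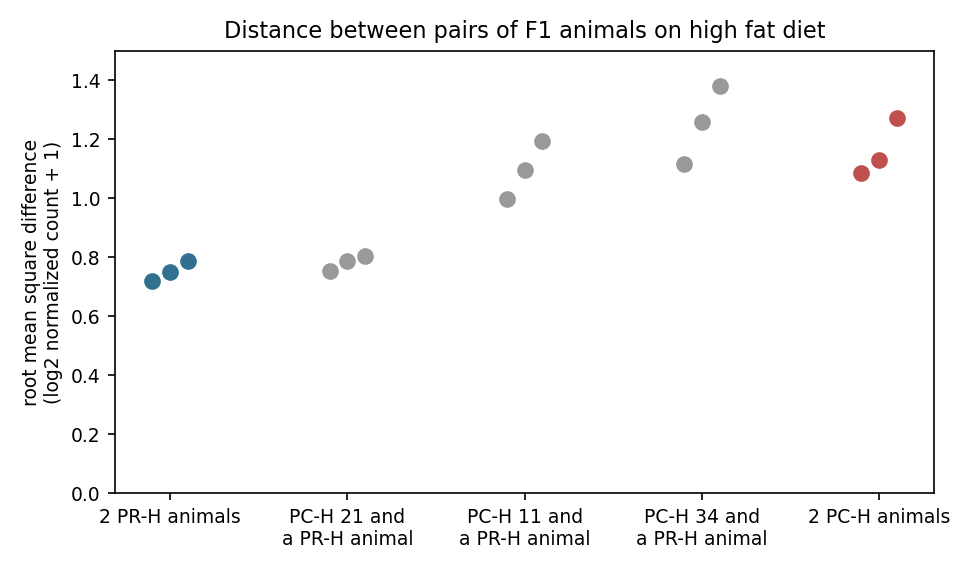
Root mean square difference in log2(normalized count + 1) over 13224 genes for each pair of animals, by kind of pair. PC-H 21 lies 0.752 to 0.804 from the PR-H animals, near the 0.72 to 0.787 among PR-H animals, and PC-H 11 and PC-H 34 lie at 0.999 or more.

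Gene groups are described by their counts at an unadjusted limma p under 0.05 (background 8.39% higher and 8.94% lower) and by their median, beside -0.0043 over all 13224 genes. The paired symbols come from the study's list of genes that differ between PC-C and PC-H, and the PC-H animals are shared. Neither the direction nor the counts of these genes are therefore independent evidence, and the share over all genes is not a like background for them. Of the 94 paired genes with a higher mean in PC-H than in PC-C, 80 were lower in PR-H than in PC-H by sign. Of the 47 with a lower mean, 44 were higher in PR-H. Over the 141 paired genes tested, 27 were higher and 40 lower in PR-H, with a median of -0.13.

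Among the 4 sterol genes 0 passed, and the median was 0.30. Abcg1, which exports cholesterol to high density lipoprotein, stood at 2318, 2399 and 1277 in PC-H 11, 21 and 34 and 3268, 2714 and 2869.6 in PR-H 16, 23 and 31 (log2 difference 0.61 ± 0.56 SE, adjusted p = 0.564 with limma and 0.617 with DESeq2). The control chow animals ranged from 65.5 to 381 in PC-C and 87.3 to 658 in PR-C. Srebf1, the regulator of lipid synthesis, differed by 0.49 ± 0.54 SE and Scd1, the stearoyl-CoA desaturase, by 0.11 ± 0.41 SE. Mylip, the ubiquitin ligase that degrades the LDL receptor, stood at 1615, 1505 and 1363 in PC-H 11, 21 and 34 and 1371, 1336 and 1674 in PR-H 16, 23 and 31 (-0.04 ± 0.22 SE), the groups overlapping fully. Its control chow range was 340.3 to 659 in PC-C and 386 to 632 in PR-C. Ackr3, a scavenging receptor of the chemokine Cxcl12, stood at 1879, 3320.0 and 1854 in PC-H 11, 21 and 34 and 4163, 4484 and 4894 in PR-H 16, 23 and 31 (log2 difference 0.99 ± 0.35 SE, adjusted p = 0.251 with limma and 0.143 with DESeq2), with every PR-H animal above every PC-H animal. On control chow Ackr3 ranged from 801 to 1217 in PC-C and 1374 to 2051 in PR-C, again without overlap. Its log2 difference between PR-C and PC-C was 0.74, with the same sign as between PR-H and PC-H. Between the F2 groups on high fat chow, PR-C-H and PC-C-H, the Ackr3 difference had the opposite sign, at -1.34. In each of these comparisons 0 of 13224 genes passed limma's adjusted threshold, so the Ackr3 differences are only a description. Ppp1r2, an inhibitor of protein phosphatase 1, differed by 0.08 ± 0.20 SE between PR-H and PC-H.

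The interferon and immune list had the median farthest from 0 of the 9 lists, at -1.35, with 2 of 10 tested members higher and 6 lower in PR-H at an unadjusted p under 0.05. No member passed limma or DESeq2 after adjustment. Ifi27, an interferon-induced membrane protein, stood at 9368, 6475 and 12774 in PC-H 11, 21 and 34 and 3502, 2660.2 and 5157 in PR-H 16, 23 and 31 (log2 difference -1.34 ± 0.41 SE, adjusted p = 0.251 with limma and 0.0738 with DESeq2). The groups did not overlap, and PR-H lay near the control chow animals at 2916 to 3555 in PC-C and 2549 to 4088 in PR-C. Ifi27l2, of the same family, stood at 16542, 8361 and 20639 in PC-H 11, 21 and 34 and 5433, 4526 and 6881 in PR-H 16, 23 and 31 (-1.36 ± 0.42 SE). Siglec1, the sialoadhesin of macrophages, stood at 28.5, 8.07 and 156 in PC-H 11, 21 and 34 and 4.3, 2.46 and 5.29 in PR-H 16, 23 and 31 (log2 difference -2.84 ± 1.07 SE, adjusted p = 0.251 with limma and 0.0888 with DESeq2). Nod2, a sensor of bacterial peptidoglycan, went the other way, at 391, 641 and 362 in PC-H 11, 21 and 34 and 714, 886 and 589 in PR-H 16, 23 and 31 (log2 difference 0.68 ± 0.25 SE, adjusted p = 0.251 with limma and 0.164 with DESeq2), and the groups overlapped. Zc3hav1 was the other higher member, at 1405, 1672 and 1462 in PC-H 11, 21 and 34 and 2226, 2469 and 2153 in PR-H 16, 23 and 31. Its groups did not overlap (log2 difference 0.59 ± 0.16 SE, adjusted p = 0.251 with limma and 0.0618 with DESeq2). Samsn1, among the lower members, differed by -2.02 ± 0.53 SE, also without overlap. PC-H 34 was the highest of the 6 animals in 8 of the 10 genes. Pou2af1, a coactivator of B lymphocytes, stood at 0, 10.1 and 247 in PC-H 11, 21 and 34 and 2.58, 4.1 and 0 in PR-H 16, 23 and 31, and Fcmr, the IgM receptor of lymphocytes, at 41.9, 9.08 and 288 in PC-H 11, 21 and 34 and 19.8, 17.2 and 16.8 in PR-H 16, 23 and 31, both overlapping between the groups. Siglec1 and Pou2af1 met the level filter only through PC-H 34, and the list median of -1.35 includes both. Without PC-H 34, 8 members met the filter, of which 1 was higher and 4 lower at an unadjusted p under 0.05. Their median was -0.36, and 8.27% of all genes passed in either direction. Whether lymphocytes or macrophages in that lysate had a part in the differences was not tested. Bach2, also of lymphocytes, was below the level filter.

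**Figure D5:**
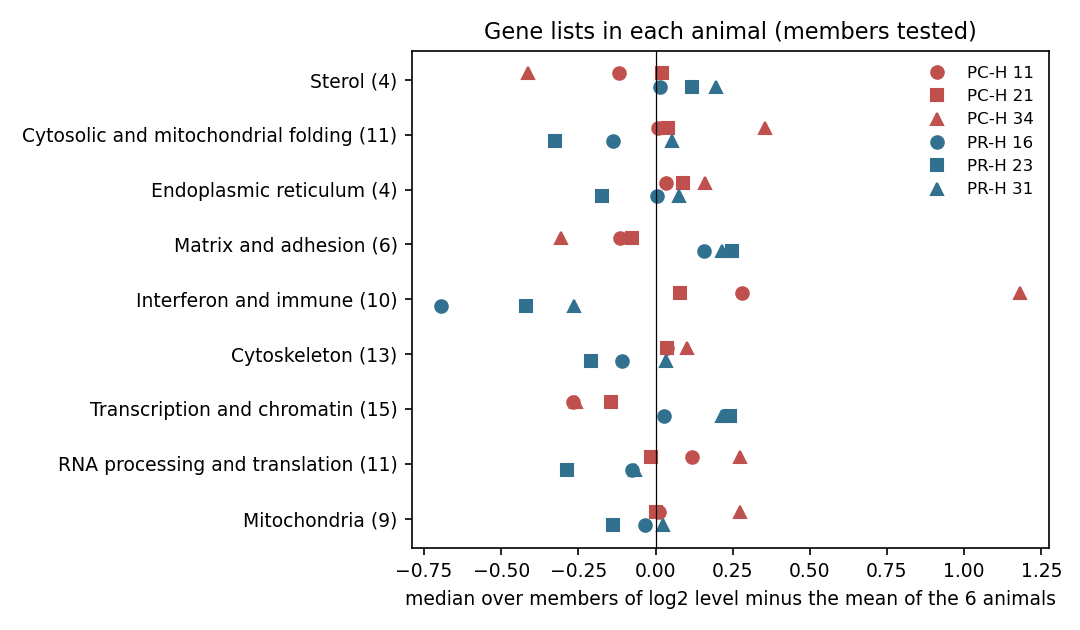
Median over the tested members of 9 gene lists of the log2 level minus the mean of the 6 animals, for each PC-H (red) and PR-H (blue) animal, with the number of members in brackets. In the interferon and immune list PC-H 34 lies at 1.18 and the other PC-H animals at 0.0778 and 0.279, while PR-H lies between -0.695 and -0.264.

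The transcription and chromatin list had 6 of 15 members higher and 2 lower in PR-H at an unadjusted p under 0.05, and a median of 0.37. DESeq2 called 2 higher (Tshz1, Gmeb2) and 1 lower (Snai2). Arid1b, a DNA-binding subunit of the SWI/SNF remodeller, stood at 313, 364 and 344 in PC-H 11, 21 and 34 and 601, 716 and 548 in PR-H 16, 23 and 31 (log2 difference 0.86 ± 0.23 SE, adjusted p = 0.251 with limma and 0.0522 with DESeq2), without overlap. Tet2, which oxidizes 5-methylcytosine, differed by 0.53 ± 0.26 SE and Nfat5, the factor of hypertonic stress, by 0.38 ± 0.23 SE. Cited4, a coactivator that binds p300, stood at 1344, 318 and 396 in PC-H 11, 21 and 34 and 102, 108 and 356 in PR-H 16, 23 and 31, where PC-H 11 was far above all others.

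Of the 11 cytosolic and mitochondrial folding genes 0 were higher and 4 lower, with a median of -0.26. Timm13, a chaperone of the mitochondrial intermembrane space, stood at 916, 596 and 770.1 in PC-H 11, 21 and 34 and 498, 412 and 554 in PR-H 16, 23 and 31 (log2 difference -0.63 ± 0.21 SE, adjusted p = 0.251 with limma and 0.102 with DESeq2). Hspa8, the constitutive Hsc70, was the member with the highest difference, at 29435, 44933 and 24056 in PC-H 11, 21 and 34 and 33787, 35044 and 45577 in PR-H 16, 23 and 31 (log2 difference 0.25 ± 0.25 SE, adjusted p = 0.599 with limma and 0.672 with DESeq2), and its groups overlapped. In 8 of the 11 genes PR-H 23 was the lowest animal. In the endoplasmic reticulum list 1 of 4 was lower and the median was -0.23. The lower gene was Tusc3, of the oligosaccharyltransferase complex, at 1881, 1575 and 1839 in PC-H 11, 21 and 34 and 1438, 1528 and 1343 in PR-H 16, 23 and 31 (log2 difference -0.30 ± 0.11 SE, adjusted p = 0.251 with limma and 0.104 with DESeq2), without overlap. Manf, a secreted factor of the unfolded protein response, stood at 3611, 4101 and 4117 in PC-H 11, 21 and 34 and 3759, 2345 and 3743 in PR-H 16, 23 and 31 (-0.30 ± 0.19 SE), with overlap. Dnajb11, a co-chaperone of the same compartment, differed by 0.09 ± 0.14 SE.

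The cytoskeleton list had 3 of 13 higher and 5 lower, and a median of -0.08. Tuba4a, an alpha tubulin, stood at 208, 211 and 353 in PC-H 11, 21 and 34 and 40.4, 45.1 and 83.8 in PR-H 16, 23 and 31 (log2 difference -2.20 ± 0.59 SE, adjusted p = 0.251 with limma and 0.0526 with DESeq2), and its 3 PC-H levels lay above every PR-H level and above the control chow ranges of 33.8 to 58.3 in PC-C and 44.6 to 63 in PR-C. In the matrix and adhesion list 2 of 6 were higher and 0 lower, with a median of 0.31. These were Npnt and Ltbp1, which tethers latent TGF-beta to the matrix and differed by 0.56 ± 0.21 SE. Colec12, a scavenger receptor, was lowest, at 978, 311 and 887 in PC-H 11, 21 and 34 and 275, 376 and 555 in PR-H 16, 23 and 31 (-0.74 ± 0.49 SE), with overlap.

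RNA processing and translation genes were higher in 2 and lower in 5 of 11, with a median of -0.35. Ints1, of the Integrator complex, stood at 679.5, 1034 and 538 in PC-H 11, 21 and 34 and 1127, 1109.7 and 1248 in PR-H 16, 23 and 31 (log2 difference 0.68 ± 0.21 SE, adjusted p = 0.251 with limma and 0.112 with DESeq2). Rps19bp1, which binds ribosomal protein S19, stood at 1257, 1036 and 1515 in PC-H 11, 21 and 34 and 1004, 756 and 933 in PR-H 16, 23 and 31 (log2 difference -0.49 ± 0.17 SE, adjusted p = 0.251 with limma and 0.109 with DESeq2). Neither gene overlapped between the groups. Mitochondrial genes were split, 3 of 9 higher and 3 lower, with a median of -0.16. Slc25a40, a mitochondrial glutathione carrier, stood at 65.9, 131 and 124 in PC-H 11, 21 and 34 and 121, 192 and 199 in PR-H 16, 23 and 31 (0.70 ± 0.27 SE). Tmem11, an inner membrane protein that shapes mitochondria, stood at 2013, 1451 and 2145 in PC-H 11, 21 and 34 and 1361, 1176 and 1619 in PR-H 16, 23 and 31 (-0.42 ± 0.16 SE). Both overlapped between the groups.

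Beside the control chow animals, the 24 DESeq2 calls higher in PR-H had a median log2 difference of -0.70 between PC-H and PC-C and of 0.11 between PR-H and PR-C. For the 31 lower calls the medians were 0.97 and -0.76. These comparisons contain the PC-H and PR-H animals that chose the genes, so the values are a description. The F0 ration was also compared in animals that the comparison does not contain. Between PR-C and PC-C, 36 of the 55 genes (65.5%) had the same sign as between PR-H and PC-H, beside 54% of all genes, with a median of 0.09 in that direction. At an unadjusted limma p under 0.05, 5 of them differed with that sign and 0 with the other, beside 4.45% of all genes in either direction. In F2 animals on high fat chow (PR-C-H and PC-C-H), whose F0 granddams had the restricted or full ration and whose own F1 dams ate control chow freely, it was 32 of 55 (58.2%), beside 49.9%, with a median of 0.06, and 2 differed with that sign and 1 with the other, beside 2.19%. The difference between the effect of the ration on high fat and on control chow passed limma's adjusted threshold in 0 of 13224 genes.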

How the data were processed

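Poly(A) RNA of 24 carotid lysates was sequenced by the authors, and per the labels FastQC, Trimmomatic (trimming), STAR (alignment) and DESeq2 were used. Versions, genome build and the read counter are not given in the sources used here. The deposited values are a signal, the number of reads of a gene scaled with 1 size factor for each library (normalized counts). Dividing by the lowest value above 0 of each library gave whole reads for 100% of values (tolerance 1e-06). The step of PC-H 21 and of PR-C 36 lay so close to 1 that their values were nearly whole already.

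Groups came from the sample labels. Animal 51 of PC-C-H, left out by the study after its quality check, was left out here, so 23 libraries in 8 groups entered each fit. Genes with a mean of at least 10 were tested with limma 3.58.1 (trend) on log2(normalized count + 1), so that a log2 difference understates the change of low genes. Recovered reads were tested with the DESeq2 1.42.0 Wald test, with its default independent filtering (target 0.1), and with the edgeR 4.0.16 quasi-likelihood test. A first run had set the filtering target to 0.05 and was replaced by the default after its results were seen, because the default was the setting fixed in the design. Both are given with the alternatives. P-values were adjusted by Benjamini-Hochberg with a threshold of 0.05. They set the difference between group means against the spread between animals, which the main fits estimate over all 8 groups together. The median SD was larger in PC-H (0.378 log2 units) than in the other groups (0.167 to 0.278). The shared estimate can therefore understate the error of this comparison. Counting error covers sampling of reads only. The tests were checked on simulated data with the same spread in every group, which does not cover a group with a wider spread such as PC-H. R was version 4.3.3 and scipy 1.17.1.

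Members and lists were chosen with earlier results of these data known. Named were, in each list, the genes called and those with the highest and lowest difference. The plan also took the calls with the largest differences (mean of at least 50, no overlap), the lowest limma p and the largest differences in SD. Most of these genes lack a symbol and are not printed, among them all those chosen by SD. Other named list members were chosen after their values were seen. The cytoskeleton gene with the highest difference is not reported here. Identifiers were paired with symbols through the study's supplementary gene list (147 identifiers), while 0 matched the reference table, and at most 2 identifiers without a symbol are printed per direction. The closest pair of one group (PR-H 16 and 31) differed by far more than sampling noise (chi-square over degrees of freedom, 38.6), so each library counted once. The authors' columns not used numbered 0. The alternatives were other normalizations, pseudocounts, filters, sets of libraries, sex as a covariate, array weights and leaving out each animal.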

Additional observations from a re-analysis of the deposited data

How the results depend on the processing

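No paired analysis was possible because every animal has its own number and the labels give no litters. The number of calls depended on the setting. With limma it was 0 and became 58 with the DESeq2 Wald test, 1 without a level filter, and 0 to 1640 when an animal was left out (1640 without PC-H 21). In fits of the 6 libraries alone, chosen after seeing the data, it was 0 to 119 when an animal was left out. With DESeq2 it was 58 and became 17 without independent filtering, 113 with the 6 libraries alone, 90 with the 12 F1 libraries, 17 with animal 51 added, and 2 to 2459 when an animal was left out. An independent filtering target of 0.05, kept as an alternative after the data were seen, gave 58 with all animals and 2 to 2552 when an animal was left out, with 23 in place of 9 without PC-H 11, 20 in place of 14 without PR-H 16, 2 in place of 4 without PR-H 23, and 98 and 2 with either target without PR-H 31 and PC-H 34. The cause of these changes was not tested. The share of genes without overlap was 19.3% to 44.8% when an animal was left out, where groups of 2 against 3 overlap less by construction. The median difference in SD was 0.0595 to 0.21 and the share of genes with the larger SD in PC-H 59.9% to 81.9%. Leaving out an animal here sets an SD over 2 animals against an SD over 3, which shifts both values by construction. Of 666 values for 28 named genes under alternatives, 623 kept their direction and side of the threshold, 32 passed it newly (22 without PC-H 21, 10 with DESeq2) and 11 changed sign, all in genes near 0. Mylip was 0.0106 with sex as a covariate and -0.139 to 0.0237 when an animal was left out (0.0208 without PC-H 11, 0.00477 without PR-H 16, 0.0237 without PR-H 23). Dnajb11 was -0.00814 to 0.153 and Ppp1r2 -0.106 to 0.252, both below 0 without PC-H 11. The median counting error was below the median SD between animals in every class of level, and the calls were not tested at a reduced depth.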

Other observations

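A further 56 paired genes tested belong to none of the lists. At an unadjusted limma p under 0.05, 8 of them were higher and 14 lower in PR-H, with a median log2 difference of -0.18, and DESeq2 called Glrx and Limd2. The genes named next were chosen after their values were seen. Akap11, which anchors protein kinase A, stood at 929.8, 1174 and 949 in PC-H 11, 21 and 34 and 1762, 1982 and 1575 in PR-H 16, 23 and 31 normalized counts (log2 difference 0.80 ± 0.22 SE, adjusted p = 0.251 with limma and 0.0629 with DESeq2). Fntb, the beta subunit of protein farnesyltransferase, stood at 856, 783 and 824 in PC-H 11, 21 and 34 and 543, 608 and 569.9 in PR-H 16, 23 and 31 (log2 difference -0.52 ± 0.15 SE, adjusted p = 0.251 with limma and 0.0525 with DESeq2). In both genes the groups did not overlap. Tspan11, a tetraspanin, stood at 362, 213 and 256 in PC-H 11, 21 and 34 and 143, 99.2 and 52.9 in PR-H 16, 23 and 31 (log2 difference -1.56 ± 0.46 SE, adjusted p = 0.251 with limma and 0.0767 with DESeq2). Medag, a gene of adipocyte differentiation, stood at 1396, 1274 and 1443 in PC-H 11, 21 and 34 and 905, 825 and 902 in PR-H 16, 23 and 31 (log2 difference -0.64 ± 0.22 SE, adjusted p = 0.251 with limma and 0.123 with DESeq2). All 3 PC-H animals were above all PR-H animals in these last genes. The symbols come from the study's list on PC-C and PC-H, which shares the PC-H animals.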
